A study of Mus musculus with 12 samples.

Results

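The p53 pathway was examined in 12 tumours of the mouse mammary carcinoma line 4T1 through 10 genes: Trp53, which encodes p53 itself, its target genes Cdkn1a, Mdm2, Bax, Ccng1, Sesn2, Phlda3, Zmat3 and Gadd45a, and the tumour suppressor locus Cdkn2a. The genes were chosen by name, and the values of each were summed over its annotated transcripts. These 10 genes are among 35944 genes with a matched transcript, of which 15485 held enough reads to be kept. All 10 were kept and tested. Female BALB/c mice aged 6 to 8 weeks received 100000 4T1 cells under the skin of the right flank. From day 5, the tissue around the tumour was injected every 2 days with extracellular vesicles (EVs), 3 µg each time, and tumour RNA was taken on day 21. The EVs came from the mouse endothelial line MS-1 and had been electroporated with a miRNA mimic, so all 4 groups received EVs. The mimic was that of cel-miR-67, a nematode miRNA that served as control (ctrl), that of miR-142-5p, or miR-183-5p, or else miR-222-3p, with 3 tumours in each group. Nothing in the labels says more about the tumours of a group than their number, 1 to 3. The libraries held 20285968 to 27021401 estimated reads.

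p53 is a transcription factor that cells stabilise after DNA damage or oncogenic stress. It binds a response element in its target genes and raises the transcription of inhibitors of the cell cycle (Cdkn1a), of promoters of cell death (Bax) and of its own inhibitor, the ubiquitin ligase Mdm2, which closes a feedback loop. The Cdkn2a locus encodes Ink4a, an inhibitor of cyclin-dependent kinases, and, from another first exon, Arf, which holds Mdm2 in check. 4T1 cells have been described as deficient in p53, and tumours grown from them also contain host macrophages, neutrophils, fibroblasts, endothelial cells and lymphocytes, whose p53 gene is that of the mouse strain.

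The 3 miRNAs differ in their seed, the bases 2 to 8 that pair with target mRNAs. The mature mouse sequences (RefSeq, GRCm38.p6) are shown because the groups are named after them, with the seed in capitals. They are those of the natural miRNAs. The paper lists the sense strands of its mimics, which have the same bases for miR-142-5p and miR-183-5p. The one listed for miR-222-3p lacks the final cu. miR-142-5p is encoded at chr11:87756867-87756887 (+), miR-183-5p at chr6:30169711-30169732 (-) and miR-222-3p at chrX:19146901-19146923 (-).
miR-142-5p: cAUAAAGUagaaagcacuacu
miR-183-5p: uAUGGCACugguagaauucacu
miR-222-3p: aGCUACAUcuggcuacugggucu

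None of the 3 miRNAs shares its seed with another. The longest annotated 3′ UTR of each gene was searched on the mRNA strand for the letters that pair with bases 2 to 8, which are ACTTTAT (miR-142-5p), GTGCCAT (miR-183-5p) and ATGTAGC (miR-222-3p) (a 7mer-m8 match, or an 8mer where an A follows). No match to miR-142-5p or miR-183-5p was found in the 3′ UTRs of the 10 genes. Among 14620 tested genes with an annotated 3′ UTR, 16.2% held a match to miR-142-5p and 10.5% a match to miR-183-5p. Matches to miR-222-3p were found in 2 of the 10 genes, Ccng1 and Zmat3, against 11.02% of all genes. Ccng1, which encodes cyclin G1, held an 8mer (3.84% of all genes hold one) at base 1077 of its 2316-base 3′ UTR. Zmat3, which encodes a zinc finger protein that binds RNA, held a pair of 7mer-m8 matches at bases 5455 and 5482 of a 6692-base 3′ UTR. That 3′ UTR was far longer than the median of all genes, 1193 bases. The matched bases are in capitals below within 30-base stretches of the mRNA strand, at chr11:40749773-40749802 (-) for Ccng1, and at chr3:32336011-32336040 (-) and chr3:32335984-32336013 (-) for Zmat3 (GRCm38).
Ccng1: gttgtttgcctATGTAGCAggattacagca
Zmat3, first match: tgtgatgttccATGTAGCtcaggtgagtca
Zmat3, second match: tcacttctactATGTAGCcaaggctgacct

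Promoters were searched for the p53 consensus, in which a pair of 10-base units is separated by a spacer of up to 13 bases. The window ran from 250 bases before to 50 bases after an annotated start (RefSeq, GRCm38.p6), and the unit reads the same on both strands. In all, 11 promoters of 9 of the genes were found in the reference, and Zmat3 had no entry. At least 1 unit was present in 6 of the 11 promoters, those of Trp53, Cdkn1a, Mdm2, Bax, Ccng1 and Gadd45a, against 8.36% of all 32851 promoters. A complete pair was present only in a promoter of Cdkn1a, against 0.0731% of all promoters. Its spacer had 12 bases, and its first base lay 73 bases before the start. It is printed with both units in capitals and 10 flanking bases on each side, a stretch at chr17:29090896-29090947 (+). The search allowed no mismatch. The 10 flanking bases directly after the second unit depart from the consensus unit at their first base only, so they were not counted as a unit.
Cdkn1a: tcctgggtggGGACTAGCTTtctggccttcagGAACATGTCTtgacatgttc

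This promoter belongs to the start used by the transcripts Cdkn1a-202 and Cdkn1a-204, which together held 1.06% of the TPM of Cdkn1a on average (0.103% to 2.03% over the 12 tumours). TPM counts molecules of a transcript, corrected for its length, out of a fixed total per library. The start shared by Cdkn1a-201 and Cdkn1a-205 held 96.3%, and no unit was found in its promoter. The pair also lies upstream of that start (chr17:29093769 for Cdkn1a-201), outside the window searched for it. Which of the starts the pair may serve was not tested. A match is a run of letters and not a measured binding site.

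All 10 genes had reads in every tumour, at levels per length that spanned a wide range. Median levels over the 12 tumours were 266 TPM for Gadd45a, a sensor of stress and DNA damage, and 115 TPM for Bax, a pore-forming protein of the mitochondrial death pathway. They were 50.1 TPM for Mdm2, 48.7 TPM for Cdkn1a, the p21 inhibitor of cyclin-dependent kinases, and 46.6 TPM for Trp53. Lower levels were found for Phlda3, an inhibitor of Akt signalling, at 31.0 TPM and for Ccng1 at 22.3 TPM. Sesn2, which restrains mTORC1 under stress, had a median of 4.66 TPM and Zmat3 one of 3.59 TPM. Cdkn2a was the lowest at 0.624 TPM. Gadd45a (148 to 329 TPM) lay above Bax (102 to 128 TPM) in every tumour, and Bax above the other 8 genes. Neighbours whose ranges overlapped were Mdm2, Cdkn1a and Trp53 (42.7 to 58.5, 27.6 to 67.0 and 39.6 to 63.2 TPM), Phlda3 and Ccng1 (23.3 to 38.9 and 18.9 to 28.2 TPM), and Sesn2 and Zmat3 (3.88 to 5.68 and 2.69 to 4.33 TPM). The range of Cdkn1a also reached into those of Phlda3 and Ccng1. In miR-142-5p tumour 2, Cdkn1a lay below Phlda3 (27.6 against 34.5 TPM). In bulk tumours, fewer cells of a type and less RNA per cell cannot be told apart, and the levels do not tell cancer cells from host cells.

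The first question was whether the 3 miRNAs changed the expression of these genes relative to ctrl. They did not do so detectably. Of the 10 genes, 0 passed an adjusted p of 0.05 (DESeq2 Wald test over all genes) in any of the 3 comparisons. Over all 15438 genes with an adjusted p, those called made up 0.00648% (1 gene) with miR-142-5p, 0% with miR-183-5p and 0.0259% (4 genes) with miR-222-3p. At an unadjusted p under 0.05, 0 of the 10 genes were counted by DESeq2 and 0 by edgeR in each of the 3 comparisons, against 3.58%, 3.21% and 2.31% of all genes by DESeq2. The median log2 fold change of the 10 genes was 0.04 with miR-142-5p (6 higher and 4 lower), 0.05 with miR-183-5p (8 higher and 2 lower) and 0.09 with miR-222-3p (7 higher and 3 lower). The medians of all genes were -0.01 in each. The 3 comparisons share their ctrl tumours.

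**Figure D1:**
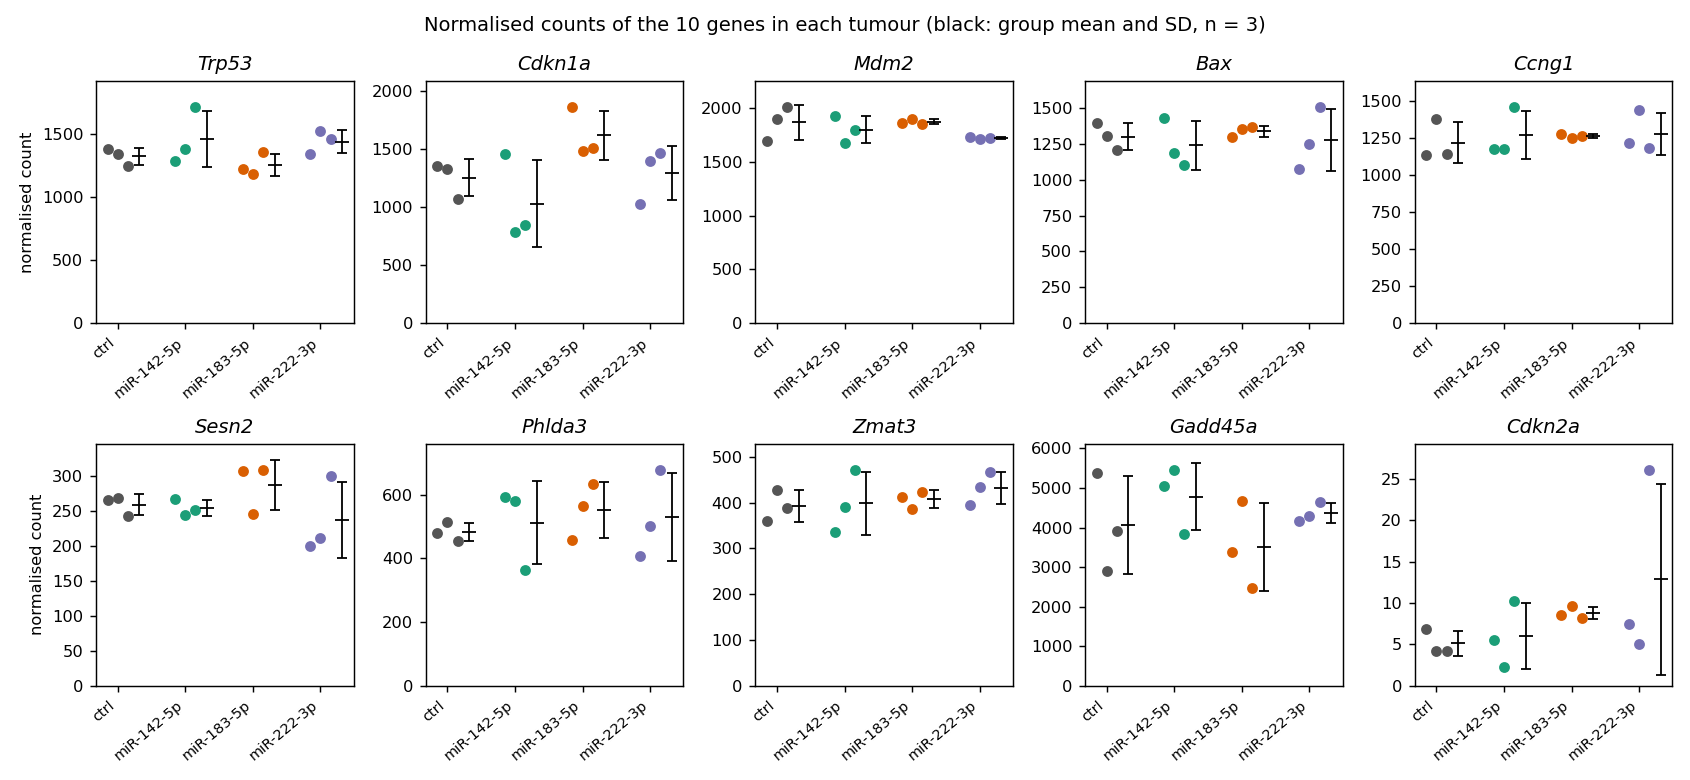
Normalised counts (vertical axis, from 0) of the 10 genes in the 3 tumours of each group (points), with the group mean and SD in black. Mdm2 varied least, between 1673 and 2009, while Cdkn1a, Gadd45a and Cdkn2a varied most, and the groups overlapped for most genes.

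Counts normalised for depth and transcript length are given from here on unless TPM is named. Trp53 (chr11:69580359-69591873, +, GRCm38) stood at 1380, 1343 and 1245 in the ctrl tumours, at 1284, 1384 and 1715 in the miR-142-5p tumours, at 1222, 1186 and 1357 in those given miR-183-5p and at 1342, 1521 and 1459 in the miR-222-3p tumours. The highest value, in miR-142-5p tumour 3, was 1.45 times the lowest, and each miRNA group overlapped ctrl. The log2 fold change against ctrl was 0.15 (SE 0.13) with miR-142-5p, -0.08 (SE 0.13) with miR-183-5p and 0.12 (SE 0.13) with miR-222-3p. Their 95% intervals together ran from -0.33 to 0.40.

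Cdkn1a was the member with the largest differences between groups apart from the scarcely expressed Cdkn2a. The gene lies at chr17:29090976-29100727 (+, GRCm38). Its normalised counts were 1357, 1334 and 1070 in ctrl, 1462, 785 and 844 in the miR-142-5p group, 1866, 1483 and 1511 in miR-183-5p and 1031, 1396 and 1467 in miR-222-3p. All miR-183-5p tumours lay above all tumours of the other groups. The miR-142-5p group was split, with tumour 1 among the higher tumours and tumours 2 and 3 the lowest of the 12. Against ctrl, the log2 fold change was 0.37 (SE 0.23, 95% interval -0.09 to 0.83) for miR-183-5p, -0.28 (SE 0.23, interval -0.74 to 0.17) for miR-142-5p and 0.05 (SE 0.23, interval -0.41 to 0.51) for miR-222-3p. Each interval held 0. Over the 12 tumours the CV of Cdkn1a (the SD as a share of the mean) was 23.9%, above that of 86.3% of the genes with a mean normalised count of at least 100. Groups that did not overlap were found for 2 of the 10 genes between miR-183-5p and ctrl, Cdkn1a and Cdkn2a, against 9.2% of all genes. For Cdkn2a this rested on 8 to 10 estimated reads against 4 to 6. No ctrl tumour held 10 reads of Cdkn2a, so the gene was kept only through tumours of the miRNA groups. Its place in this count is therefore not independent of the read filter.

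Mdm2 (chr10:117688875-117710758, -, GRCm38) varied little. Its values were 1691, 1898 and 2009 in ctrl, 1926, 1673 and 1795 in the miR-142-5p group, 1858, 1897 and 1854 in miR-183-5p and 1727, 1708 and 1721 in miR-222-3p. Over the 12 tumours its CV was 6.02%, a lower value than in all but 3.68% of the 11542 genes with a mean normalised count of at least 100, whose median CV was 13%. Its log2 fold changes against ctrl were -0.05, 0.0029 and -0.12 for miR-142-5p, then miR-183-5p, then miR-222-3p (SE 0.10 in each). The outermost bounds of their intervals were -0.31 and 0.19.

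**Figure D2:**
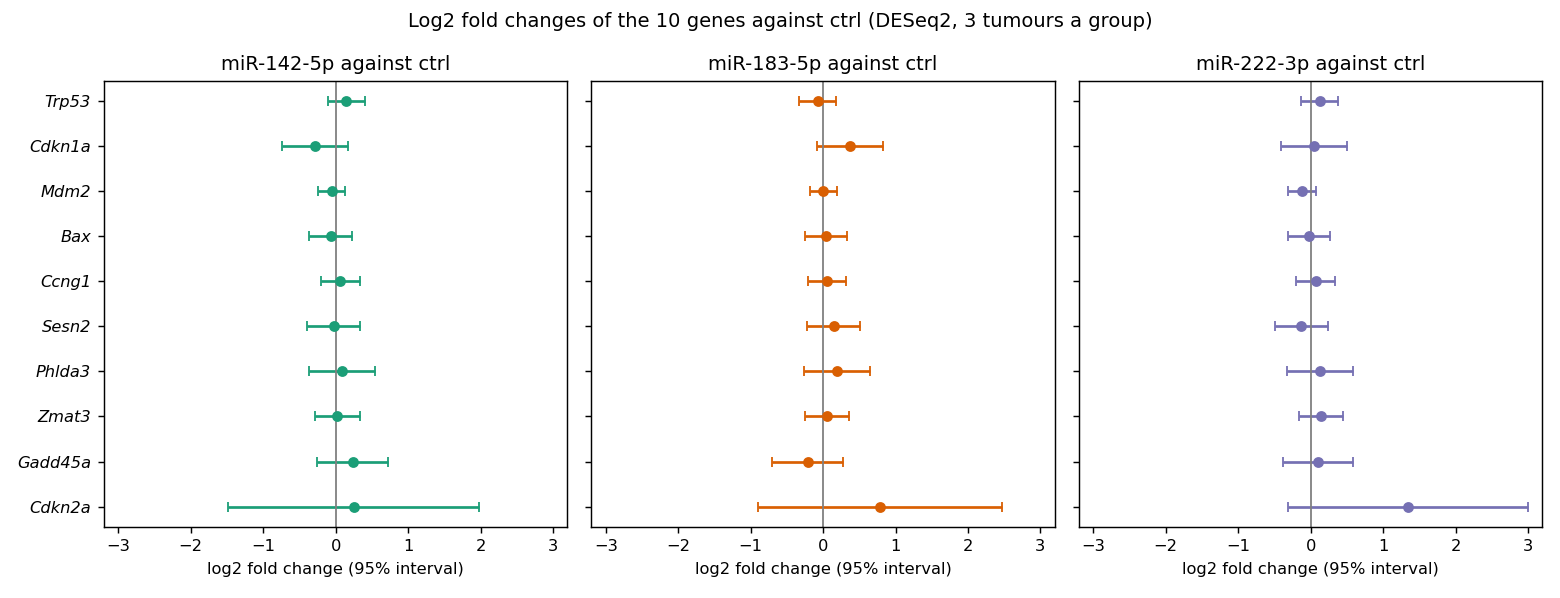
Log2 fold changes against ctrl (horizontal axis) of the 10 genes for each miRNA, with 95% intervals from DESeq2. Every interval crosses 0, those of Mdm2 are the narrowest and those of Cdkn2a the widest, reaching 3.00 for miR-222-3p.

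The effectors of cell death and of metabolic stress also overlapped between groups. Bax had 1393, 1302 and 1205 in ctrl, 1431, 1183 and 1103 in the miR-142-5p group, 1296, 1350 and 1370 in miR-183-5p and 1075, 1252 and 1507 in miR-222-3p. Both the lowest and the highest value were in the miR-222-3p group, whose mean was close to that of ctrl. Phlda3 ranged from 363 in miR-142-5p tumour 3 to 679 in miR-222-3p tumour 3, with group means of 483 ± 29.0 in ctrl, 513 ± 130 in the miR-142-5p group, 552 ± 89.1 in miR-183-5p and 530 ± 137 in miR-222-3p (SD, n = 3). Sesn2 ranged from 200 to 310, with the group means 260 ± 14.5, 255 ± 11.2, 288 ± 35.6 and 237 ± 54.8 in the same order (SD, n = 3). For these 3 genes, log2 fold changes against ctrl lay between -0.13 (Sesn2, miR-222-3p) and 0.19 (Phlda3, miR-183-5p).

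Ccng1 and Zmat3 were the genes with miR-222-3p matches. Ccng1 had 1131, 1375 and 1140 in ctrl and 1212, 1438 and 1181 in miR-222-3p. The log2 fold change of Ccng1 was 0.07 (SE 0.14, 95% interval -0.20 to 0.34), so that at its lower bound the level was 0.873 times that of ctrl. Zmat3 had 360, 428 and 389 in ctrl and 395, 433 and 466 in miR-222-3p. Its log2 fold change was 0.14 (SE 0.16, interval -0.17 to 0.44), with a lower bound of 0.891 times the ctrl level. Neither gene was lower in the miR-222-3p group on average. In the miR-142-5p and miR-183-5p groups, Ccng1 lay between 1175 and 1457 and Zmat3 between 335 and 472.

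Gadd45a, the most abundant of the 10, varied by 2.22 times between tumours. It had 5374, 2902 and 3902 in ctrl, 5045, 5461 and 3828 in the miR-142-5p group, 3379, 4666 and 2463 in miR-183-5p and 4155, 4298 and 4640 in miR-222-3p. The ctrl and miR-183-5p groups were widely spread (CV 30.6% and 31.6%), and the miR-222-3p group was tight (CV 5.71%). Its log2 fold changes against ctrl were 0.24, -0.21 and 0.10 for miR-142-5p, then miR-183-5p, then miR-222-3p (SE 0.25 in each). For the 9 genes other than Cdkn2a, the 27 log2 fold changes against ctrl lay between -0.28 and 0.37. Their 95% intervals reached from -0.74 to 0.83, that is from 0.598 to 1.77 times the ctrl level.

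Cdkn2a (chr4:89274471-89294653, -, GRCm38) was close to the limit of detection. Estimated reads numbered 6, 4 and 4 in ctrl, 5, 2 and 11 in the miR-142-5p group, 10, 10 and 8 in miR-183-5p and 8, 5 and 30 in miR-222-3p. Only miR-142-5p tumour 2 lay under the floor of 3 reads, and miR-222-3p tumour 3 held far more reads than any other tumour. The log2 fold changes against ctrl were 0.25 (SE 0.88), 0.79 (SE 0.86) and 1.34 (SE 0.84) for miR-142-5p, then miR-183-5p, then miR-222-3p. Without miR-222-3p tumour 3, the last of these was 0.29, and with each other tumour of these groups left out it stayed between 1.22 and 1.72. With intervals as wide as -1.48 to 1.98, changes of several fold in either direction would not have been detected. The transcript with the Arf first exon (Cdkn2a-202, first exon chr4:89294334-89294653, GRCm38) received 99.6 of the estimated reads summed over the 12 libraries. The transcript with the Ink4a first exon (Cdkn2a-201, first exon chr4:89281986-89282192) received 3.38, with at most 1.92 reads in a library, and none in 10 of the 12. By these estimates, Ink4a was at or under the floor in every library. They rest on few reads and on how reads common to both transcripts were assigned.

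The miRNA groups were next compared with each other. Again 0 of the 10 genes passed an adjusted p of 0.05 in any of the 3 comparisons, nor in a likelihood ratio test of any difference among the 4 groups. Genes called made up 0.0518% of all genes between miR-183-5p and miR-142-5p, 0.0324% between miR-183-5p and miR-222-3p, 0.0389% between miR-142-5p and miR-222-3p and 0.0583% in the test of the 4 groups. An unadjusted p under 0.05 was found for Cdkn1a alone, between miR-183-5p and miR-142-5p and, by DESeq2, in the test of the 4 groups. It was found by DESeq2 for 7.94% of all genes between miR-183-5p and miR-142-5p, for 3.25% and 3.62% in the comparisons of these groups with miR-222-3p, and for 4.75% in the test of the 4 groups. By edgeR the first of these counts for Cdkn1a was the same, and the second fell to 0.

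Cdkn1a was 1.57-fold higher in miR-183-5p than in miR-142-5p tumours (log2 fold change 0.65, SE 0.23, 95% interval 0.20 to 1.11), with an adjusted p = 0.298 over all genes (DESeq2). The groups did not overlap, which was so for 1 of the 10 genes and for 12.3% of all genes. Between miR-183-5p and miR-222-3p, Cdkn1a and Mdm2 did not overlap (2 of the 10 genes, 9.06% of all genes), with log2 fold changes of 0.32 (SE 0.23) and 0.12 (SE 0.10). Without miR-142-5p tumour 1, the log2 fold change of Cdkn1a between miR-183-5p and miR-142-5p was 0.99 (SE 0.19) and the adjusted p = 0.00018 (DESeq2), and Cdkn1a was then called. It was then also called in the test of the 4 groups (adjusted p = 0.00214, DESeq2). In that fit 2.64% of all genes were called between miR-183-5p and miR-142-5p and 1.55% in the test of the 4 groups. With each of the other 5 tumours of these groups left out, the log2 fold change stayed between 0.49 and 0.71 and the adjusted p between 0.421 and 0.958 (DESeq2). The call therefore rested on leaving out that 1 tumour. Without it, the log2 fold change of Cdkn1a between miR-142-5p and ctrl was -0.62 in place of -0.28, and it was not called (adjusted p = 0.134, DESeq2).

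**Figure D3:**
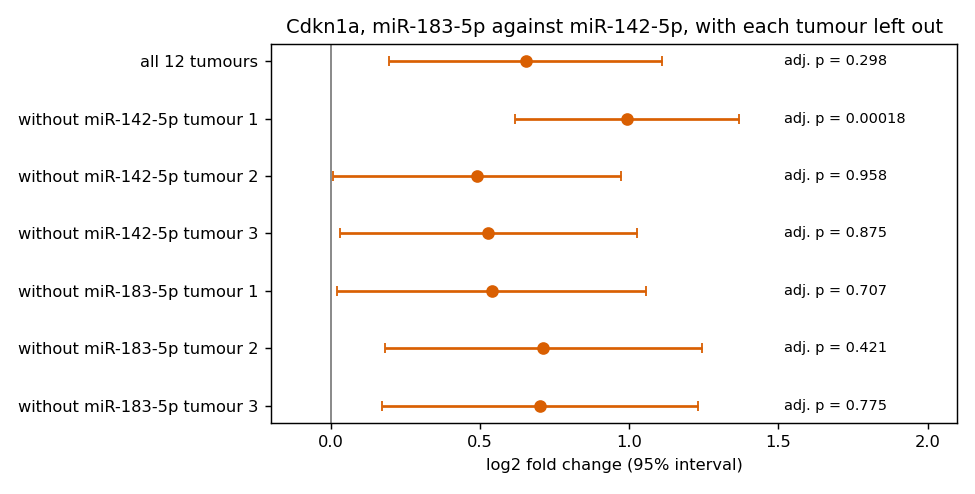
Log2 fold change of Cdkn1a between miR-183-5p and miR-142-5p tumours (horizontal axis, 95% interval) with all 12 tumours and with each tumour of the 2 groups left out. The estimate rises from 0.65 to 0.99 without miR-142-5p tumour 1, the only setting shown with an adjusted p under 0.05.

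For several cell types, the summed marker levels also did not overlap between the miR-183-5p and miR-142-5p groups. The 5 fibroblast markers were Col1a1, Col1a2, Pdgfra, Pdgfrb and Dcn. Their summed level was 579 to 767 TPM in miR-183-5p and 181 to 534 TPM in miR-142-5p tumours. That of 5 neutrophil markers was 1877 to 3039 TPM against 1017 to 1659 TPM, and that of 6 macrophage markers 623 to 948 TPM against 1040 to 1525 TPM. These 3 lists did not overlap between the 2 groups, while those of the carcinoma epithelium (1676 to 1934 against 1448 to 2163 TPM), the endothelium (72.3 to 91.9 against 83.5 to 114 TPM), T and NK cells (21.3 to 50.7 against 43.0 to 123 TPM) and proliferating cells (812 to 981 against 592 to 835 TPM) did. Of all single genes, 12.3% did not overlap between these 2 groups, and the sums were not tested between them. Each marker of the 7 lists reached 1 TPM in at least 1 library. Against ctrl 0 markers were called, which does not bear on the difference between the miR-183-5p and miR-142-5p groups. The part of these cell types in the result for Cdkn1a was not tested.

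Over the 12 tumours, the genes were then set against each other and against the marker lists. None of the 45 pairs of the 10 genes passed the adjusted threshold (permutation test, Benjamini-Hochberg). The most positive pairs were Bax with Phlda3 (Pearson r = 0.78, permutation p = 0.00289, adjusted p = 0.130, Spearman rho = 0.74, permutation p = 0.00792, adjusted p = 0.178) and Cdkn1a with Bax (r = 0.73, permutation p = 0.00673, adjusted p = 0.151, rho = 0.67, permutation p = 0.0202, adjusted p = 0.186). Without the 2 tumours farthest from the median of the first gene, r fell to 0.56 and 0.64. As deviations from the group means, r was 0.81 and 0.78, with adjusted p = 0.347 for both when tumours were permuted within groups in all 1296 orders (exact permutation test). Trp53 and Mdm2 formed the most negative pair (r = -0.54, permutation p = 0.0639, adjusted p = 0.411, rho = -0.69, permutation p = 0.0172, adjusted p = 0.186). Its r was -0.73 without the 2 farthest tumours and -0.37 as deviations from the group means.

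For these pairs, each list was taken as the mean log2(normalised count + 1) of its markers, not as summed TPM. Of 70 pairs of a gene and a marker list, 0 passed the adjusted threshold (permutation test). Cdkn1a was most closely related to the fibroblast markers (r = 0.75, permutation p = 0.00465, adjusted p = 0.0864, rho = 0.83, permutation p = 0.00156, adjusted p = 0.109). Without the 2 farthest tumours r was 0.68, and as deviations from the group means it was 0.66. Bax was most closely related to the markers of the carcinoma epithelium (r = 0.78, permutation p = 0.00325, adjusted p = 0.0864, rho = 0.74, permutation p = 0.00795, adjusted p = 0.139), with r = 0.73 without the 2 farthest tumours and 0.77 as deviations. Phlda3 was inversely related to the T and NK cell markers (r = -0.77, permutation p = 0.00244, adjusted p = 0.0864, rho = -0.69, permutation p = 0.0164, adjusted p = 0.143), with r = -0.53 without the 2 farthest tumours and -0.90 as deviations. Cdkn1a had a positive r with 4 lists, the carcinoma epithelium, fibroblasts, neutrophils and proliferating cells, and a negative one with the other 3. The part of these cell types in the levels of the 10 genes was not tested.

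**Figure D4:**
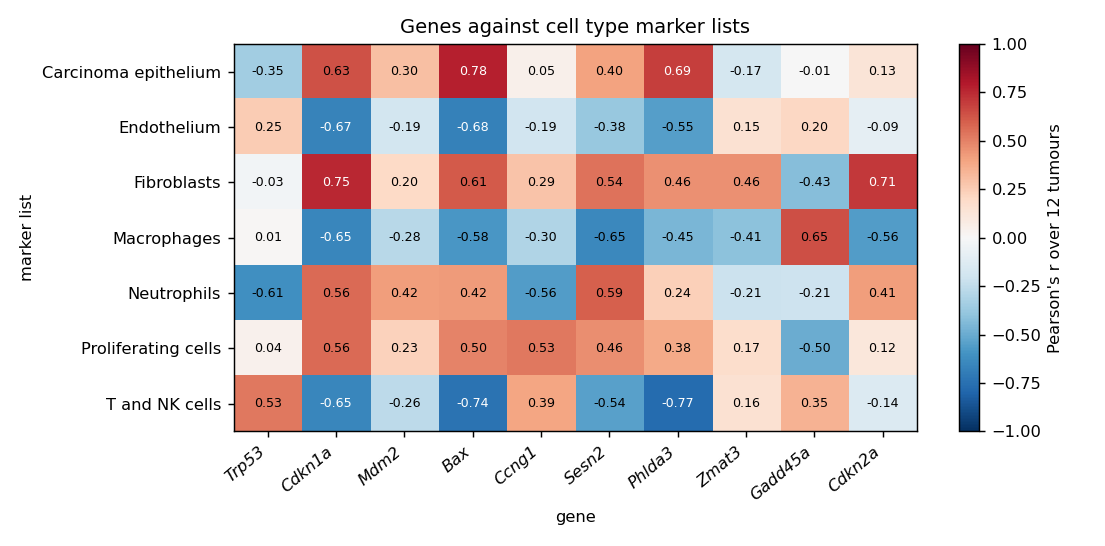
Pearson r over the 12 tumours between each of the 10 genes and 7 lists of cell type markers, as coloured cells with their values. Each list is the mean log2(normalised count + 1) of its markers. Among the strongest are Carcinoma epithelium with Bax (0.78) and T and NK cells with Phlda3 (-0.77), and 0 of the 70 pairs passed an adjusted p of 0.05.

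Among 11541 genes with a mean normalised count of at least 100, those whose levels over the 12 tumours were most like Trp53 were Ublcp1 (r = 0.94), Nelfcd (r = 0.90) and Rapgef4 (r = 0.88). Those most like Cdkn1a were Errfi1 (r = 0.94), Ssr3 (r = 0.94) and Esd (r = 0.93). All 6 had r of at least 0.73 without the 2 farthest tumours. The genes most like Cdkn2a were Armcx2 (r = 0.83), Cd24a (r = 0.82) and Nrep (r = 0.80), and the last of these fell to 0.36 without the 2 farthest tumours. These genes were picked for their likeness from many and share their libraries, so that no test was made.

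At the level of transcripts, several of the genes were measured mainly through 1 annotated form. Cdkn1a-201 held 93.8% of the TPM of its gene on average, Gadd45a-201 92.2%, Bax-201 81.2% and Phlda3-201 73.3%. Mdm2 was spread over a transcript annotated as subject to nonsense-mediated decay (Mdm2-209, 36.7%), the coding Mdm2-201 (26.6%) and a retained intron (Mdm2-204, 22.1%). Zmat3 was split between Zmat3-203 (49.5%) and Zmat3-201 (38.99%), but the share of the latter ranged from 0.386% to 93.0% between tumours, so that the levels of these forms are not given by group.

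Trp53 held a pair of transcripts that short reads can hardly separate. Trp53-201 (1772 bases) and Trp53-203 (1771 bases) were identical over the first 1771 bases and differed by 1 base in length. Their sum was 22.7 to 39.2 TPM (median 28.7 TPM). The share of the pair assigned to Trp53-203 was 67.5%, 67.6% and 2.14% in ctrl, 7.01%, 8.47% and 40.2% in the miR-142-5p group, 31.1%, 27.3% and 26.9% in miR-183-5p and 0.669%, 0.425% and 0.00983% in miR-222-3p. All miR-222-3p tumours lay below all others, and the ctrl tumours spanned most of the range. The groups were not tested on this share, since it rests on how reads common to both forms were assigned, and the summed count of the gene does not depend on it. The only other gene with a near-identical copy of a member (at least 500 bases at 90% identity or more) was the pseudogene Trp53-ps. It lies on chromosome 17, with 94.96% identity over 1170 bases, and 0 reads were counted for it. A gene absent from the quantified transcripts would also give 0, and which case held was not checked.

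**Figure D5:**
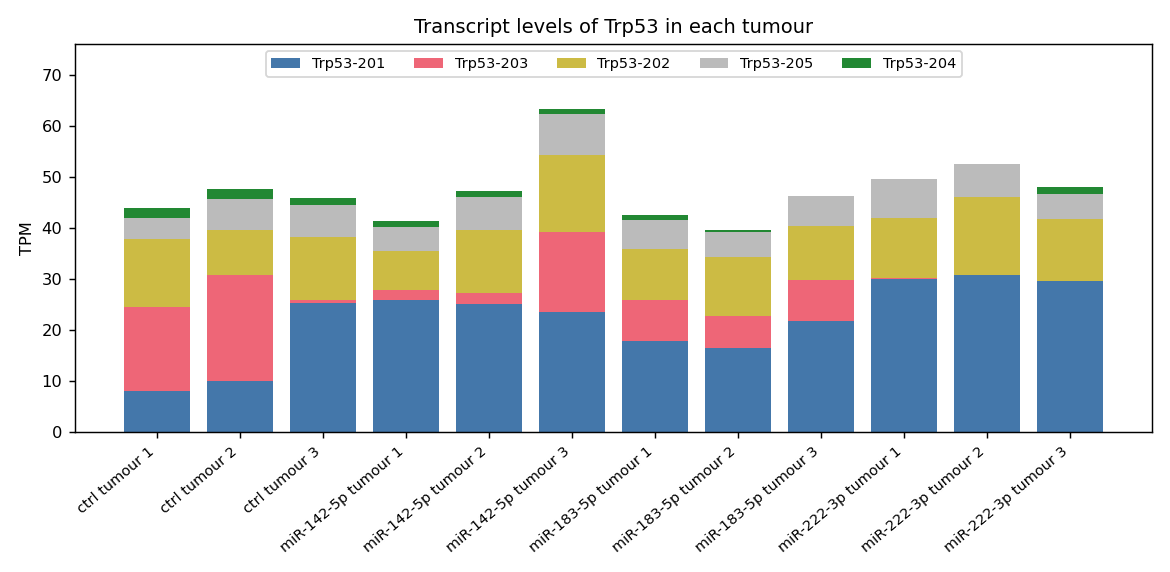
Levels of the Trp53 transcripts in TPM (vertical axis) in each of the 12 tumours. The sum of the near-identical Trp53-201 and Trp53-203 lies between 22.7 and 39.2 TPM, while the share assigned to Trp53-203 runs from 0.00983% to 67.6%.

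The wider pathway was described through 6 lists of 87 genes in all, of which 81 were tested. None was called against ctrl in any comparison or in the test of the 4 groups (DESeq2). Of 40 other p53 targets 37 were tested, and their median log2 fold changes were -0.01, -0.01 and -0.05 for miR-142-5p, then miR-183-5p, then miR-222-3p. Higher than ctrl were 18, 18 and 12 of them. The 21 regulators of p53 (kinases, ligases, acetyltransferases and cofactors) had medians of -0.03, -0.06 and -0.07, with 7, 8 and 6 higher. Medians of the 5 tested CDK inhibitors were -0.06, 0.14 and -0.04, those of 7 paralogs of the 10 genes 0.07, 0.11 and -0.0013, and those of 13 BCL-2 family genes 0.01, -0.11 and -0.03. The medians of all genes were -0.01 in each comparison.

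Genes of these lists with an unadjusted p under 0.05 against ctrl numbered 4, and each had an adjusted p near 1 (DESeq2). Of the 81 tested genes, miR-142-5p accounted for 1, miR-183-5p had 3 and miR-222-3p had 0, while the shares over all genes were 3.58%, 3.21% and 2.31% in that order. Sesn1, the paralog of Sesn2 and itself a p53 target, had 713 ± 111 normalised counts in miR-142-5p and 534 ± 68.2 in ctrl tumours (SD, n = 3), a log2 difference of 0.42 (SE 0.21). Atr, the kinase that signals stalled replication to p53, had 668 ± 84.1 in miR-183-5p against 863 ± 50.7 in ctrl (log2 difference -0.37, SE 0.14). The translesion polymerase gene Polk had a log2 difference of -0.27 (SE 0.14) and the anti-apoptotic Bcl2 one of -0.39 (SE 0.19), both for miR-183-5p.

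The other genes with the lowest p of their list and comparison had larger errors relative to their differences. For miR-142-5p these were Ddit4 (log2 difference -0.36, SE 0.20), Cop1, a ubiquitin ligase of p53 (-0.31, SE 0.16), Atr (-0.21, SE 0.14), Cdkn1b, which encodes p27 (-0.11, SE 0.11), Cdkn2c (-0.12, SE 0.14), Sesn3 (0.18, SE 0.18), Bad (0.22, SE 0.17) and Pmaip1, which encodes the death effector Noxa (0.16, SE 0.19). For miR-183-5p they were Sco2 (-0.76, SE 0.43), Prkdc, the DNA-dependent protein kinase (-0.43, SE 0.22), Cdkn3 (0.35, SE 0.30), Cdkn2b (0.79, SE 0.78), Ccng2 (0.19, SE 0.15), Gadd45b (0.35, SE 0.33) and Bcl2a1b (-0.37, SE 0.20). For miR-222-3p they were Polk (-0.24, SE 0.14), Bbc3, which encodes the death effector Puma (-0.49, SE 0.28), Kat5 (-0.19, SE 0.12), Trp53bp1 (-0.28, SE 0.21), Cdkn2c (-0.12, SE 0.14), Cdkn3 (0.14, SE 0.30), Phlda2 (0.35, SE 0.29), Ccng2 (-0.13, SE 0.15) and Pmaip1 (-0.23, SE 0.19). Trp63, the only tested relative of Trp53, had 33.4 ± 25.5 normalised counts in ctrl, 20.7 ± 5.86 in the miR-142-5p group, 22.1 ± 9.77 in miR-183-5p and 42.1 ± 3.15 in miR-222-3p (SD, n = 3). Its log2 differences from ctrl were -0.68 (SE 0.63), -0.59 (SE 0.63) and 0.34 (SE 0.62) in that order.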

How the data were processed

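RNA of 12 tumours was sequenced by the authors as polyA-selected, stranded libraries of paired 151-nt reads. Transcripts were quantified with Salmon against GRCm38, and the deposited tables hold an estimated count and a TPM value for each transcript, made by the authors. Their methods and files name different annotation releases. Here 116710 of 118783 transcripts (98.3%) were matched to GENCODE M21 and summed to 35944 genes. Unmatched transcripts held 0.633 to 0.671% of reads. Libraries held 20285968 to 27021401 estimated reads, and 14441 to 15437 genes had 10 reads or more.

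Estimated counts were rounded and genes kept where 3 or more libraries held 10 reads or more (15485 genes, 15438 with an adjusted p). The 12 libraries were fitted together in DESeq2 1.42.0 (R 4.3.3) with transcript length factors. Wald tests gave the 6 differences between groups and a likelihood ratio test any difference among the 4 groups, with Benjamini-Hochberg adjustment over all genes and a threshold of 0.05. Alternatives were edgeR 4.0.16 (quasi-likelihood), TMM factors, no count filter, no length factors, only the groups compared, a replicate block, a threshold of 0.1 and each tumour left out. Relations over the 12 tumours used log2(normalised count + 1) and permutation tests (Python 3.11.15, scipy 1.17.1). Near-identical copies were sought with BLAST 2.17.0.

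The 10 genes and all lists were chosen with earlier results of these data known. Other genes named are, for each list, the 2 with the lowest p in each comparison with ctrl (none passed the threshold), and the 3 genes most like Trp53, Cdkn1a and Cdkn2a. Tumours of a group were taken as replicates (12 pairs within groups differed by more than sampling noise, with a chi-square per gene of 14.0 to 60.2). The labels do not say that each came from a separate mouse, so p-values measure the spread between these samples. The 95% intervals come from the same fits and hold that spread too, while the floor of 3 reads covers counting error only.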

Additional observations from a re-analysis of the deposited data

How the results depend on the processing

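Under the 5 other fits of the 12 tumours or of the groups compared, and with a threshold of 0.1, 0 of the 10 genes were called in each comparison in which the setting was run. With each tumour left out, the number called was 0 to 1 between miR-183-5p and miR-142-5p and 0 to 1 in the test of the 4 groups, the call being Cdkn1a without miR-142-5p tumour 1. With a replicate block, 0 genes were called in each comparison. No clear pairing by tumour number was seen, though these values cannot exclude one. Of 18 same-numbered pairs, 6 had a correlation of deviations over 0.1 (range -0.577 to 0.357). Only 2 of 12 tumours correlated best with their own number. With 8mer matches alone, 1 gene held a miR-222-3p match in place of 2.

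Of 180 log2 fold changes against ctrl under 6 other settings, 179 kept their sign, and that of Phlda3 for miR-142-5p turned to -0.0588 with no length factors. Of 180 values with a tumour left out, 22 changed sign, none of them called. For miR-142-5p the ranges were -0.118 to 0.00334 for Mdm2, -0.185 to 0.00814 for Bax, -0.0487 to 0.160 for Ccng1, -0.0724 to 0.000167 for Sesn2, -0.0366 to 0.282 for Phlda3, -0.114 to 0.138 for Zmat3 and -0.393 to 0.638 for Cdkn2a. For miR-183-5p they were -0.0628 to 0.0604 for Mdm2, -0.00824 to 0.0952 for Bax, -0.00275 to 0.120 for Zmat3 and -0.474 to 0.0429 for Gadd45a. For miR-222-3p they were -0.0500 to 0.191 for Cdkn1a, -0.161 to 0.0857 for Bax, -0.0240 to 0.168 for Ccng1, -0.0853 to 0.291 for Phlda3 and -0.0882 to 0.359 for Gadd45a. The cause was not tested. Cdkn2a held 2 to 30 reads in a library, so that few reads decide its values, which for miR-222-3p ran from 0.292 to 1.72 with a tumour left out.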
